A study of Mus musculus with 9 samples.

Results

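The array held 83 probes whose names contain LINCRNAEXON, out of 60915 non-control probes, and each was spotted once. They were chosen by that name alone, and the prefix MM9 matches the mouse genome build that the file headers give for the array design, mm9. By name they target exons of long intergenic non-coding RNAs (lincRNAs); the name also holds a number and a plus or minus sign, 50 with plus and 33 with minus. The sources used here do not say which lincRNA or gene a name stands for or what its sign marks, and probe sequences and genome positions were not used.

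The 9 samples were mouse livers in 3 groups of 3, each on 1 array with 1 colour (Cy3): fetal liver at embryonic day 17.5, adult liver of males aged 2 months, and liver cancer of males aged 1 year. DEN (diethylnitrosamine), a carcinogen of the liver, was given to induce the cancers, and no genotype, strain or other agent is named for any group. Against adult liver, the cancers differ in age, exposure and tumour at once, and these cannot be told apart; the labels give no sex for the embryos. Replicates are called independent samples but are tied to no animal or litter, and p-values therefore reflect the spread among these samples, which may be technical.

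LincRNAs are RNAs transcribed from stretches between protein-coding genes, usually spliced and polyadenylated, that are not translated into known proteins. Most are less abundant than messenger RNAs and many are restricted to a tissue or a stage, and some act on chromatin, on transcription of neighbouring genes or as scaffolds for proteins. The fetal liver is a site of blood formation as well as a developing metabolic organ, while hepatocytes dominate the adult liver. In whole tissue, fewer cells of a type and less RNA per cell cannot be told apart.

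The arrays came from 2 scans according to the file headers. The first held 7 arrays, namely all of fetal and adult liver with liver cancer replicate 1, and the second held the other 2 liver cancer arrays. More probes were well above background (the scanner software's mark for a spot) on the second scan than on the first. The tissues could not be checked against defining markers, because of 23 marker genes listed only Tfrc and B2m had a probe paired with a name. The part of the scan in the results was not tested, so liver cancer values are also given within the first scan, where that group is 1 array assumed to vary like the others.

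Most of the lincRNA exon probes gave no signal well above background on the first scan, and the counts on the 2 liver cancer arrays of the second scan were higher. In fetal liver 25, 29 and 26 of the 83 were well above background, and in adult liver 22, 22 and 23. On liver cancer replicate 1 it was 22 of 82, whereas replicates 2 and 3 had 50 and 48. The adult and fetal arrays did not overlap, and liver cancer replicate 1 lay at the adult count. All probes of the array showed the same order, with 46.4%, 54.9% and 47.7% on the fetal arrays, 41%, 43% and 42.1% on the adult arrays, 43.3% on liver cancer replicate 1 and 69.4% and 68% on replicates 2 and 3. The order is therefore that of the whole array and not particular to the lincRNA exon probes. The mean share was 32.1% ± 2.51 (SD, n = 3) over the fetal arrays, 26.9% ± 0.696 over the adult arrays and 48.3% ± 18.6 over the liver cancer arrays. By two-sided exact permutation tests over arrays, fetal and adult liver differed with p = 0.1, liver cancer and adult liver with p = 0.2, and liver cancer and fetal liver with p = 0.4. Adjusted over these 3 comparisons the values were 0.3, 0.3 and 0.4, and 3 arrays against 3 cannot give less than 0.1. Without liver cancer replicate 1 the excess over adult liver was 32.1 percentage points, against 21.4 with it, and the excess over fetal liver 26.9 against 16.2. Without replicate 2 the excess over fetal liver was 10.2.

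Of the 83 probes, 29 were not well above background on any array, 17 were on all 9 arrays, and 23 were on liver cancer replicate 2 or 3 alone. Of those 23, 15 carried the mark on both arrays and 8 on 1 of them. Their median processed signal was 41.7 and 42 on the arrays of the second scan and between 3.89 and 6.46 on the first. The arrays of the second scan were brighter as a whole. The 75th percentile of processed signal over all non-control spots was 422.7 and 370 there, against 97.15 to 195.9 on the first scan. Every level given here is the log2 processed signal minus the 75th percentile of its array. On that scale the median of the 23 probes was -3.30 and -3.08 on the second scan and -5.59 to -4.05 on the first. The lowest level marked as well above background was itself -4.26 and -3.96 on the second scan and between -3.27 and -2.09 on the first, so that a given level could be marked on the second scan and not on the first. These 23 probes were read no further.

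Differences between groups were tested for the 30 lincRNA exon probes that carried the mark on 3 or more of the 9 arrays. This is 36.1% of the 83, against 28.4% of probes named humanlincRNA, 27% of those named mouselincRNA and 56% of all probes. The other 53 were not tested, and apart from the 29 and the 23 they include MM9LINCRNAEXON11622-_P1, marked on fetal replicate 2 alone. A probe was called at a limma adjusted p below 0.05 (Benjamini-Hochberg over all 34103 tested probes) with at least a 2-fold change, which is a log2 fold change of 1. By this rule 13 of the 30 were called in at least 1 of the 3 comparisons and 17 in none.

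For 12 numbers the array carried a plus and a minus probe, and in some of them only 1 sign gave enough signal to be tested. In 3 of these numbers only the plus probe was tested, in 3 only the minus probe, in 1 both, and in 5 neither. MM9LINCRNAEXON10294-_P1 and MM9LINCRNAEXON11569-_P1 were well above background on all 9 arrays. Their plus counterparts were so on 0 and on 2 arrays, the latter both of the second scan. Conversely MM9LINCRNAEXON11712+_P1 and MM9LINCRNAEXON11711+_P1 were on all 9 arrays, and their minus counterparts on 0 and 2. MM9LINCRNAEXON10664+_P1 was on all 9 and MM9LINCRNAEXON10664-_P1 on 4, which is the number with both signs tested. Among all members 38% of the plus probes and 33.3% of the minus probes were tested.

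The first comparison asked which lincRNA exon probes differed between fetal and adult liver. Of the 30 tested lincRNA exon probes 2 were higher in fetal liver and 6 lower, together 26.7%, against 39.6% called among all tested probes (21.2% higher and 18.4% lower). The median log2 fold change of the 30 was -0.42, against -0.02 over all tested probes, and 5 of the 30 had a positive value. Fetal and adult arrays did not overlap for 16 of the 30 (53.3%), against 66.1% of all tested probes. The member count is below the background in total, with a larger part of it lower. The same held for the tested humanlincRNA probes, with 22% called (12 higher and 57 lower), and the mouselincRNA probes, with 24% called (6 higher and 36 lower). Leaving out 1 array added calls, among them MM9LINCRNAEXON11496+_P1 (-1.03 without fetal replicate 2, -1.05 without adult replicate 1) and MM9LINCRNAEXON11867+_P1 (-1.40 without fetal replicate 3). Of these arrays, MM9LINCRNAEXON11496+_P1 was well above background on fetal replicate 2 alone and on no adult array. Neither a fold nor a direction can therefore be given for it. MM9LINCRNAEXON11274+_P1 was added without adult replicate 2 (-2.04). Without fetal replicate 1, 8 probes were called, of which 7 were among those called over all arrays.

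MM9LINCRNAEXON11564+_P1 was the clearest fetal signal among them. It stood at -0.69, -0.64 and -0.83 on the fetal arrays, and at -4.24, -3.94 and -4.28 on the adult arrays, where it was never well above background. On the liver cancer arrays it lay at -3.68, -3.33 and -2.82, marked on replicates 2 and 3 only. All fetal arrays lay above all others. The probe would have missed the filter of 3 arrays without its fetal marks, so its call and the filter are not independent. From the fetal mean of -0.72 ± 0.10 (SD, n = 3) and an adult mean of -4.15 ± 0.19, it was at least 2.82-fold higher in fetal liver. Such a bound raises the dim signals to the lowest level that was well above background on each array. The limma adjusted p was 4.08e-06 for the measured log2 fold change of 3.43, and 0.000528 with dim signals raised in this way. With normexp background correction the difference was 0.91 log2, under the minimum fold.

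MM9LINCRNAEXON10569-_P1 changed most in the other direction. Its fetal levels were 3.99, 3.51 and 4.00, its adult levels 7.57, 7.39 and 7.43. The groups lay far apart and each was narrow, and the difference was 12.4-fold (log2 fold change -3.63 with an SE of 0.95 over 3 arrays per group, limma adjusted p = 0.011). The SE over all arrays takes in the liver cancer arrays, which differ widely for this probe, and within the first scan it was 0.17.

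MM9LINCRNAEXON11939-_P1 was 3.92-fold lower in fetal liver (-1.97 ± 0.23, limma adjusted p = 0.000167), at 1.56, 2.09 and 1.55 against 3.48, 3.75 and 3.89 in adult liver. MM9LINCRNAEXON11712+_P1 was 2.67-fold lower (-1.42 ± 0.39, limma adjusted p = 0.0144), at -1.38, -1.79 and -1.53 against 0.12, 0.13 and -0.70. MM9LINCRNAEXON11806+_P1 was 2.57-fold lower (-1.36 ± 0.34, limma adjusted p = 0.00925), at 0.77, 0.28 and 0.61 against 2.16, 1.85 and 1.72. None of these 3 probes overlapped between the groups. MM9LINCRNAEXON11731-_P1 was 2.41-fold lower (-1.27 ± 0.37, limma adjusted p = 0.0188), at 1.91, 1.46 and 1.66 against 3.03, 2.97 and 2.83, again without overlap. The call of MM9LINCRNAEXON11712+_P1 was lost without fetal replicate 2 (-1.31) or adult replicate 1 or 2 (-1.28 in each case) and with normexp (-0.93), which also ended that of MM9LINCRNAEXON11806+_P1 (-0.98). That of MM9LINCRNAEXON11731-_P1 was lost without fetal replicate 2 (-1.16) or 3 (-1.26) or adult replicate 1 (-1.22) or 2 (-1.25).

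The remaining calls concerned dim probes. MM9LINCRNAEXON11010+_P1 lay at -4.89, -3.44 and -4.74 in fetal liver, on no array well above background, and at -2.66, -2.02 and -2.45 in adult liver, where replicate 2 alone was marked. From means of -4.36 ± 0.80 (SD, n = 3) and -2.38 ± 0.32 the log2 fold change was -1.98 (limma adjusted p = 0.00979). Without its adult mark the probe would have missed the filter of 3 arrays, so this call and the filter are not independent. Raising the fetal signals to the background level left the probe 1.38-fold higher in adult liver. This is no firm bound, because adult replicates 1 and 3 were not well above background themselves. The probe was not called with all signals raised to the background level (-0.72) or with normexp (-0.25). MM9LINCRNAEXON10565+_P1 was higher in fetal liver, at -1.88, -1.17 and -1.31 against -4.17, -2.06 and -2.43 (1.43 ± 0.50, limma adjusted p = 0.0408). Adult replicate 2 alone was well above background and replicate 1 stood far below the others. Without adult replicate 1 the difference was 0.79, and the call was also lost without any 1 fetal array (1.30 to 1.65), without liver cancer replicate 2 or 3 and within the first scan, without a filter on dim probes or with these 2 groups alone (1.43 in each case), under quantile normalization and with the 75th percentile taken over probes above background everywhere (1.48 in both), with signals raised to the background level (0.68) and with normexp (0.39).

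The second comparison asked which of them differed between liver cancer and adult liver. Of the 30 probes 2 were higher in liver cancer and 2 lower, together 13.3%, against 24.1% of all tested probes (11.6% higher and 12.5% lower). The median log2 fold change was 0.05, against 0.01 over all tested probes. The arrays of the 2 groups did not overlap for 9 of the 30 probes (30%), against 42.6% of all tested probes. Of the tested humanlincRNA probes 17.2% were called and of the mouselincRNA probes 13.1%. MM9LINCRNAEXON10565+_P1, at 1.31 and not called over all arrays, was called higher without adult replicate 2 (1.72, limma adjusted p = 0.0414) and with the replicate block (1.31, limma adjusted p = 0.0257). Adult replicate 2 was the only adult array with this probe well above background, and the replicate numbers were not taken to pair the samples. Within the first scan 3 of 29 probes with a value were called, against 18.3% of all tested probes, and 1 of these 3 had also been called over all arrays.

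MM9LINCRNAEXON11806+_P1 was 4.88-fold lower in liver cancer, and it is the probe called within the first scan as well. Its levels there were 0.30, -1.12 and -0.31, all below the lowest adult level of 1.72. The log2 fold change was -2.29 ± 0.34 (SE over 3 arrays per group) with a limma adjusted p = 0.0012, and within the first scan -1.61 ± 0.27 (limma adjusted p = 0.00746). Since it was also lower in fetal liver, adult liver had the highest levels of the 3 groups for this probe.

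MM9LINCRNAEXON11939-_P1 was called 5.52-fold higher in liver cancer (2.46 ± 0.26, limma adjusted p = 0.000281), but this value rests on the second scan alone. It stood at 6.21 and 6.13 on replicates 2 and 3, with processed signals of 30270 and 24910. On replicate 1 the spot was marked as non-uniform and left out. Its processed signal there was 1438, which put it at 3.94 when kept, beside adult levels of 3.35, 3.70 and 3.85 scaled in the same way. With marked spots kept, an alternative added after the data were seen, the difference was 1.78 ± 0.55 (limma adjusted p = 0.0356). No value was obtained within the first scan, so this rise and the second scan cannot be told apart.

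MM9LINCRNAEXON10136+_P1 was 2.43-fold higher in liver cancer (1.28 ± 0.20, limma adjusted p = 0.00145). It was well above background on all 9 arrays, at -0.07, 0.35 and 0.37 in liver cancer against -0.94, -1.23 and -1.0 in adult liver, so that every liver cancer array lay above every adult one. Within the first scan the difference was 0.99 ± 0.19 (limma adjusted p = 0.0121), just under the minimum fold, and with normexp 0.69.

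MM9LINCRNAEXON11731-_P1 was 2.51-fold lower (-1.33 ± 0.37, limma adjusted p = 0.0246), at 2.54, 1.35 and 0.95 against 2.83 to 3.03 in adult liver. The arrays of the second scan were the low ones, and within the first scan the difference was -0.40 without a call. The call was also lost without any 1 adult array (-1.38 to -1.28), without liver cancer replicate 2 (-1.20) or 3 (-0.99), and without a filter on dim probes or with these 2 groups alone (-1.33 in both).

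Conversely 2 probes were called higher within the first scan and not over all arrays. MM9LINCRNAEXON11569-_P1 stood at 2.66, 1.61 and 1.61 in liver cancer and at 1.28, 1.11 and 1.25 in adult liver. The difference was 0.75 ± 0.29 over all arrays (limma adjusted p = 0.0788) and 1.45 ± 0.18 within the first scan (limma adjusted p = 0.00251). MM9LINCRNAEXON11712+_P1 stood at 1.38, 0.16 and -0.04 in liver cancer, against 0.12, 0.13 and -0.70 in adult liver. Here the values were 0.65 ± 0.39 (limma adjusted p = 0.233) and 1.53 ± 0.37 (limma adjusted p = 0.0289). In both probes liver cancer replicate 1 was the highest of the 9 arrays.

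MM9LINCRNAEXON10569-_P1 split the liver cancer samples. It measured 8.43 and 8.10 on replicates 1 and 2, above all adult arrays (7.39 to 7.57), but 4.10 on replicate 3, next to the fetal arrays (3.51 to 4.00). Replicates 2 and 3 share a scan, so the split runs within the second scan. The difference from adult liver was -0.59 ± 0.95 (limma adjusted p = 0.663), and without replicate 3 it was 0.80, again not called. MM9LINCRNAEXON11564+_P1, the fetal probe, was not called in liver cancer (limma adjusted p = 0.0249 with a log2 fold change of 0.88, under the minimum fold). With dim signals raised to the background level the sign turned (-0.65), so neither a fold nor a direction can be given. It passed without liver cancer replicate 1 (1.08).

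The third comparison was between liver cancer and fetal liver. Here 9 of the 30 probes were higher in liver cancer and 1 lower, together 33.3%, against 42.4% of all tested probes (20.4% higher and 22% lower). The median log2 fold change was 0.38, against 0.05 over all tested probes, and 23 of the 30 had a positive value. Calls were also mostly higher among humanlincRNA probes (67 higher and 11 lower) and mouselincRNA probes (39 higher and 7 lower). The arrays did not overlap for 14 of the 30 (46.7%), against 58.3% of all tested probes. Of 29 probes with a value within the first scan 4 were called, 3 higher and 1 lower, against 38.7% of all tested probes, and all 4 were among the 10. This comparison shares its fetal and liver cancer arrays with the other comparisons, so the values are given side by side and not as separate support. MM9LINCRNAEXON11806+_P1 was called lower in addition without liver cancer replicate 1 (-1.27) and with array median scaling (-1.15).

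The 4 probes called within the first scan too were as follows. MM9LINCRNAEXON10569-_P1 was 8.24-fold higher in liver cancer (log2 fold change 3.04 ± 0.95, limma adjusted p = 0.0237, and 4.60 ± 0.24 within the first scan), although replicate 3 exceeded the highest fetal array only narrowly. It was no longer called when liver cancer replicate 1 (2.27) or 2 (2.43) was left out, without any 1 fetal array (2.88 to 3.13) or with these 2 groups alone (3.04), and it measured 4.43 without replicate 3. MM9LINCRNAEXON11712+_P1 was 4.2-fold higher (2.07 ± 0.39, limma adjusted p = 0.00181, and 2.95 in the first scan). MM9LINCRNAEXON10136+_P1 was 2.44-fold higher (1.29 ± 0.20, limma adjusted p = 0.00053, and 1.00 in the first scan), with fetal levels of -1.12, -0.96 and -1.11, close to the adult ones. MM9LINCRNAEXON11564+_P1 was lower (-2.55 ± 0.25, limma adjusted p = 2.57e-05), with 2 of 3 liver cancer arrays well above background, and -2.14 with dim signals raised to the background level. Its call within the first scan rests on liver cancer replicate 1, where the spot was not well above background, so no size is given for it. Normexp left MM9LINCRNAEXON10136+_P1 at 0.59 and MM9LINCRNAEXON11564+_P1 at -0.84, both uncalled.

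MM9LINCRNAEXON11939-_P1 had the largest difference, 21.6-fold (4.44 ± 0.26, limma adjusted p = 3.03e-06), again from the second scan alone, and 3.75 ± 0.55 with marked spots kept. Even the marked spot of replicate 1, at 3.94, lay above the fetal levels on that scale, the highest of which was 2.07. MM9LINCRNAEXON10664+_P1, at 7.38, 7.32 and 7.53 on the fetal arrays, 8.43, 8.35 and 8.11 on the adult arrays and 8.40, 8.73 and 8.96 on the liver cancer arrays, was 2.43-fold higher (1.28 ± 0.21, limma adjusted p = 0.000713). On the 7 arrays of the first scan it missed the minimum fold (0.99 ± 0.20, limma adjusted p = 0.00711). The fetal arrays of this probe also lay below all adult ones, by a log2 fold change of -0.88, under the minimum fold.

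The last 4 calls were higher over all arrays and not within the first scan. MM9LINCRNAEXON11010+_P1, well above background on no fetal array, stood at -2.93, -1.32 and -1.41 in liver cancer, marked on replicates 2 and 3. Only through these marks did the probe pass the filter of 3 arrays, so the call and the filter are not independent. From the means of -4.36 and -1.89 the difference was 2.47 (limma adjusted p = 0.00283), and it was 0.54 with normexp. Raising the fetal signals to the background level left the probe 1.94-fold higher in liver cancer. This is no firm bound, because liver cancer replicate 1 was not well above background itself. Within the first scan neither group was well above background.

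MM9LINCRNAEXON11867+_P1 stood at -0.33, -0.94 and -0.41 in liver cancer, against -3.10, -1.99 and -1.52 in fetal liver (1.65 ± 0.43, limma adjusted p = 0.0111). The value within the first scan was 1.88, larger but with 1 array (limma adjusted p = 0.0607), and 0.60 with normexp. MM9LINCRNAEXON11496+_P1 stood at -2.41, -1.84 and -1.77 in liver cancer and at -3.90, -3.02 and -3.19 in fetal liver (1.36 ± 0.30, limma adjusted p = 0.00448), with only fetal replicate 2 and liver cancer replicates 2 and 3 well above background. The probe passed the filter of 3 arrays only through its liver cancer marks, so the call and the filter are not independent. It was not called within the first scan (0.96, where liver cancer replicate 1 was not well above background), with signals raised to the background level (0.76) or with normexp (0.24). MM9LINCRNAEXON10105-_P1, well above background everywhere, stood at 1.59, 2.57 and 2.66 in liver cancer and at 0.69, 1.41 and 1.03 in fetal liver (1.23 ± 0.33, limma adjusted p = 0.0112). Replicates 2 and 3 were the high ones, and the difference within the first scan was 0.55. Adult liver lay between, at 1.25, 1.51 and 1.74, and the excess over adult liver was called without liver cancer replicate 1 (1.11) but not with it (0.77).

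Read across the 3 groups, the called probes fell into a few orders of level. Adult liver was highest for MM9LINCRNAEXON11806+_P1 and MM9LINCRNAEXON11731-_P1, both called lower in fetal liver and in liver cancer, though the latter not in liver cancer within the first scan. Fetal liver was highest for MM9LINCRNAEXON11564+_P1, called against each of the other groups. Liver cancer was highest for MM9LINCRNAEXON10136+_P1 and MM9LINCRNAEXON11939-_P1, called over all arrays against each of the other groups, and the latter is the single probe called in all 3 comparisons. Fetal liver was lowest for MM9LINCRNAEXON11712+_P1, MM9LINCRNAEXON10569-_P1 and MM9LINCRNAEXON11010+_P1, called against both others over all arrays. Between liver cancer and adult liver these 3 were not called over all arrays, and MM9LINCRNAEXON11712+_P1 was within the first scan. For MM9LINCRNAEXON10569-_P1, liver cancer replicate 3 lay next to the fetal arrays. MM9LINCRNAEXON11010+_P1 was well above background on no fetal array and on 1 adult array. Both of its calls were lost with normexp, and the call between liver cancer and fetal liver also within the first scan. Over all arrays and without a block, no lincRNA exon probe was called higher than adult liver in both fetal liver and liver cancer. MM9LINCRNAEXON10565+_P1 was so called with the replicate block (1.43 and 1.31) and without adult replicate 2 (1.85 and 1.72). The replicate numbers were not taken to pair the samples. Adult replicate 2 was the only adult array with this probe well above background, so without it no firm fold can be given.

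Of the 17 tested probes not called in any comparison over all arrays, 10 were well above background on all 9 arrays and 7 on fewer. MM9LINCRNAEXON10490+_P1 stood at 6.25, 5.72 and 5.40 on the fetal arrays, 6.50, 6.32 and 6.40 on the adult arrays and 6.12, 6.15 and 5.91 on the liver cancer arrays. Its adult arrays lay above all others, with differences of -0.62 in fetal liver (limma adjusted p = 0.0587) and -0.35 in liver cancer. MM9LINCRNAEXON10667+_P1 was at 0.55, 0.29 and 0.59 on the fetal arrays, 1.38, 0.91 and 0.88 on the adult arrays and 0.92, 0.77 and 1.09 on the liver cancer arrays. Fetal arrays lay below all others in this probe, by -0.58 against adult liver (limma adjusted p = 0.0474, under the minimum fold).

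MM9LINCRNAEXON10294-_P1 lay at 1.24, 1.14 and 1.51 on the fetal arrays, 1.62, 1.90 and 1.95 on the adult arrays and 1.97, 1.37 and 1.65 on the liver cancer arrays. MM9LINCRNAEXON11711+_P1 lay at -0.57, -0.76 and -0.66 on the fetal arrays, -0.20, -0.21 and -0.46 on the adult arrays and -0.29, -0.55 and 0.07 on the liver cancer arrays. The fetal arrays of both probes did not overlap with the adult ones, yet the differences of -0.52 and -0.38 did not pass. MM9LINCRNAEXON11506+_P1 lay at -0.84, -0.98 and -0.77 on the fetal arrays, -0.51, -0.72 and -1.08 on the adult arrays and -0.04, -0.60 and 0.19 on the liver cancer arrays. Liver cancer was the higher group here, at 0.71 above fetal liver (limma adjusted p = 0.0405, under the minimum fold) and 0.62 above adult liver (limma adjusted p = 0.0928).

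MM9LINCRNAEXON10541+_P1 lay at -1.79, -1.97 and -1.77 on the fetal arrays, -1.30, -1.69 and -1.96 on the adult arrays and -1.29, -1.59 and -1.31 on the liver cancer arrays. MM9LINCRNAEXON10343+_P1 lay at 0.35, -0.19 and -0.35 on the fetal arrays, 0.77, 0.25 and -0.27 on the adult arrays and 0.79, 0.16 and 0.02 on the liver cancer arrays. MM9LINCRNAEXON11060-_P1 lay at -0.84, -0.26 and -0.42 on the fetal arrays, 0.12, -0.19 and -0.94 on the adult arrays and -0.36, -0.57 and -0.36 on the liver cancer arrays. For these 3 probes each group overlapped with the adult arrays, and no difference from adult liver passed. Over the 17 probes the log2 fold changes ran from -1.16 to 0.90 for fetal against adult liver, from -1.91 to 0.75 for liver cancer against adult liver and from -0.75 to 0.95 for liver cancer against fetal liver.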

How the data were processed

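Liver RNA of 9 samples was hybridised to 1-colour arrays. Agilent Feature Extraction 11.0.1.1 produced the deposited intensity of each spot, per the file headers, with background subtracted and no scaling between arrays. Control spots (1439) and 300 negative control spots known by name were left out, as were spots marked as outliers (0.129% to 1.3% per array, among them 1 lincRNA exon spot), and 0 spots were saturated. Processed signals were put on the log2 scale, averaged per probe and set relative to the array's own 75th percentile. Probes were tested if marked well above background on 3 or more of 9 arrays, with at least 2 usable arrays per group. All tested probes were fitted over all 9 arrays with limma 3.58.1 in R 4.3.3, with 1 mean per group. The procedure was tested on simulated data.

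Members, lists and tests were chosen with earlier results of these data known. Every member called in any comparison is named, as is every member well above background on all 9 arrays. Alternatives were other scalings, normexp on median spot and background intensity values as deposited (offset 50) with quantile normalization, other filters, raising dim signals to a floor, a scan block, a replicate block, the first scan alone, fits of 2 groups, and leaving out each array. Signal over background and the number of arrays limit precision. Near-identical transcripts were not separated.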

Additional observations from a re-analysis of the deposited data

How the results depend on the processing

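Of the 22 calls (a probe in a comparison), 22 were kept with array median scaling, 21 with quantile normalization and 19 with signals raised to the background level, against 11 with normexp. Within the first scan 12 of 20 calls with a value were kept, and with scan as a block 14 of 20; both rest liver cancer on replicate 1. No called probe changed sign in any alternative; changes of sign between uncalled values were not counted, among them MM9LINCRNAEXON11564+_P1 in liver cancer against adult liver (-0.65 with signals raised to the background level). The count for fetal against adult liver, 8, fell to 3 with normexp and to 4 among probes above background on all 9 arrays, where 17 members were tested. Over all tested probes the same settings took 13489 calls to 6913 and 7189. The count for liver cancer against fetal liver, 10, became 5 with normexp, 5 among probes above background on all arrays, 5 with scan as a block, 4 within the first scan and 20 without the filter on dim probes, where all 83 members entered. Over all tested probes 14462 calls became, in the same order, 7431, 7846, 13001, 13089 and 17580. Beyond the number tested, the cause was not tested. The count for liver cancer against adult liver, 4, lay between 3 and 6 in every alternative. Leaving out 1 array gave 6 to 8, 3 to 6 and 9 to 10 calls in the 3 comparisons. Array median scaling shifted the median of all tested probes to -0.27 for liver cancer against adult liver and to -0.18 against fetal liver. With the replicate block the counts were 8, 5 and 10, the added call being MM9LINCRNAEXON10565+_P1 in liver cancer against adult liver (1.31); the numbers share no stated litter or batch and same-numbered samples did not deviate together throughout (correlations of -0.16 to 0.31), so they were not taken to pair the samples. Dim probes are limited by signal over background: the lowest level marked as well above background was between -3.27 and -2.09 on the first scan.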

Other observations

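Several lincRNA exon probes varied more between samples of a group than between groups. MM9LINCRNAEXON11274+_P1 was well above background on all 9 arrays and stood at -0.10, -1.61 and -1.76 in fetal liver, 0.69, -1.78 and 1.09 in adult liver and -2.03, -0.69 and -3.01 in liver cancer. MM9LINCRNAEXON11298-_P1 stood at -1.08, -1.91 and -2.12, then at -1.20, -2.37 and -0.70, and at -2.66, -0.38 and -1.57. MM9LINCRNAEXON11658-_P1 stood at -1.08, -1.77 and -2.15, then at -0.76, -2.53 and -1.04, and at -2.16, -0.55 and -2.12. In all 3 probes fetal replicate 1, adult replicates 1 and 3 and liver cancer replicate 2 were the high samples of their groups, and adult replicate 2 the low one. These probes were picked after their values were seen, so no test is given.

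Together with MM9LINCRNAEXON10569-_P1 (1.40) they had the largest pooled SD within groups of the 30 tested members, at 1.24, 0.88 and 0.83 log2, against a median of 0.38 over all tested probes. None of the 3 was called in any comparison over all arrays. Without adult replicate 2, MM9LINCRNAEXON11274+_P1 was called lower than adult liver in fetal liver (-2.04) and in liver cancer (-2.80). The typical member varied more than the typical probe in fetal and adult liver (median SD 0.288 and 0.294 against 0.199 and 0.205) and less in liver cancer (0.39 against 0.469). The other lincRNA classes had like values in fetal and adult liver, 0.283 and 0.35 for humanlincRNA probes and 0.242 and 0.275 for mouselincRNA probes. In liver cancer they varied more than the typical probe, at 0.545 and 0.526.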
